A study of Mus musculus with 8 samples.

Results

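Cytosolic ribosomal protein genes were taken from the tables by name. Every row whose symbol began with Rpl or Rps and a digit was kept, and 1 name marked as a pseudogene was left out. This gave 76 genes among 10822 features in all, 43 with large subunit names and 33 with small subunit names. They were described in 5 tables of small RNA (19 to 33 nt, selected on a gel) made along the purification of the chromatoid body, an RNA and protein granule of round spermatids, which are the haploid germ cells that follow meiosis.

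The tissue was testis of C57BL/6 mice aged at least 6 weeks. Cells freed from seminiferous tubules with collagenase were fixed with formaldehyde and sonicated in RIPA buffer to give the lysate, and a spin parted this into supernatant and first pellet. That pellet was sonicated again and filtered, and a second pellet went into immunoprecipitation (IP). The antibodies were against MVH, the germ cell RNA helicase DDX4 that marks the chromatoid body, and, for the control, against acrosin (ACR), a protease of the acrosome. The last sample was sorted round spermatids labelled hetMIWI. The label names the PIWI protein MIWI, and its prefix may stand for heterozygous, but no further genotype is given. MVH IP had 2 libraries, deposited as 1 column, and each other group had 1 library, so no difference here has a replicate check, and each compares libraries rather than conditions. The pellet column is tied by the labels to both pellets without a word on which it holds. Labels tie the lysate sample to the supernatant and pellet tables; the ACR IP table has a lysate column of its own.

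A ribosome joins a small subunit, which reads the messenger RNA, to a large subunit, which forms the peptide bonds and holds the tunnel through which the new chain leaves. Each subunit is built of ribosomal RNA and many proteins, most of them encoded by short, strongly expressed genes with many processed pseudogenes. Several of these genes carry small nucleolar RNAs, which guide the modification of ribosomal RNA, inside their introns. Male germ cells also use retrocopies such as Rpl10l and Rpl39l, copies of X-linked genes that stand in when the X chromosome is silenced in meiosis. Reads counted here on such a gene are pieces of 19 to 33 nt, so a level in FPKM (fragments scaled to feature length and library size) is a level of short fragments on the gene and not of its full messenger RNA.

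Not every matched name is a ribosomal protein. Rps6ka1, Rps6ka3, Rps6ka5 and Rps6ka6 encode kinases, were listed in the MVH IP table alone, and had 0, 7.16, 0 and 0.343 FPKM there. Rpl7l1, a relative of Rpl7 named as a large subunit protein, was also set apart. It had 2.03 FPKM in the supernatant against 2.20 in the lysate, 0.557 in the pellet against 5.27, and 8.58 in round spermatids. Rps4y2 corresponds to Rps4l in RefSeq, where it is called a transcribed pseudogene. Listing itself differed widely: 72 of the 76 genes were among the 5096 features of the supernatant table, 62 of 3005 in the pellet table, 41 of 2543 in the ACR IP table, 33 of 8959 in the MVH IP table and 9 of 1014 in the round spermatid table. Only Rps15, Rps20, Rps21, Rps27a and Rps29 were in all 5, and each is a small subunit gene; 12 genes were in 1 table.

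Short reads on these genes often match more than one gene. Windows of 25 bases of the longest GENCODE M21 transcript were matched to transcripts of other genes on either strand. The median ribosomal protein gene shared 53.2% of its windows with at least 1 other gene. The partner sharing the most windows mostly had the symbol of an unnamed gene model or a pseudogene. The kinds of the other partners were not counted. The share was over 50% for 41 genes and over 90% for 5, from 91% for Rpl23a to 99.7% for Rpl35. It was 58.9% for Rps15, 76.1% for Rps27a, 51.1% for Rps21 and 12.1% for Rps20. The transcript used for Rps20 has 3706 bases, more than its listed locus spans (chromosome 4, 3761619 to 3762747). Its low share may therefore not hold for the sequence on which reads were counted. The sources used here do not say how reads with several matches were assigned, so the values of genes with high shares are uncertain.

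The pair Rpl39 and Rpl39l shows how far reads can tell a gene from its germ cell copy. RPL39 lines the exit tunnel of the large subunit, and RPL39L takes its place in ribosomes of male germ cells. Their coding sequences in the GENCODE M21 transcripts (GRCm38, coding strand, start to stop codon) are printed because the values of both genes follow, with capitals at the positions where they differ.

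Rpl39: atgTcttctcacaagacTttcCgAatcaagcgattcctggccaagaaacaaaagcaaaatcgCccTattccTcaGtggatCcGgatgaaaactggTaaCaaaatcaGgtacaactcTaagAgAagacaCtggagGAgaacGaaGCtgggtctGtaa

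Rpl39l: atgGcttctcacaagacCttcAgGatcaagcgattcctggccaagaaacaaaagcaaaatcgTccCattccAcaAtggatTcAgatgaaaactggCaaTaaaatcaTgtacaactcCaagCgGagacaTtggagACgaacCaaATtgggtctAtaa

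Both are 156 bases long and differ at 23 positions, an identity of 85.3%. The longest identical run is 38 bases, near the 5′ end, and 14 of 132 windows of 25 bases are shared. A read from that run fits both genes, whereas most other reads of the coding sequence fit 1 of them. Rpl39 was listed in the supernatant table alone, with 2.68 FPKM in the supernatant and 1.24 in the lysate. Rpl39l had 2.38 FPKM in the supernatant against 3.36 in the lysate, 0.726 in the pellet against 8.03, and was listed at 0 in ACR IP and MVH IP. The log2 ratio of supernatant to lysate, with 1 FPKM added to both columns as throughout, was 0.72 for Rpl39 and -0.37 for Rpl39l. Counting errors (SE, here and below) are implied by the authors' test statistic and always belong to the plain ratio, without the added 1 FPKM. For Rpl39 and Rpl39l they were 1.22 and 0.491, so these data do not separate the pair.

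Scale and cell markers limit what can be set side by side. The lysate columns of the pellet and supernatant tables differed by a single factor, 2.39 for all 62 genes in both, so they hold the same library on 2 scales. The lysate column of the ACR IP table was most often 2.082 times that of the supernatant table, but only 12 of 41 ribosomal protein genes were within 1% of this, and Rps27a was at 0.322 times. All 10 round spermatid markers were listed in the supernatant table, at 1.02 to 167 FPKM in the lysate, beside 4 of 6 spermatocyte, 2 of 5 spermatogonial, 1 of 5 Sertoli, 3 of 5 Leydig and 1 of 5 blood or peritubular markers. In the table of sorted round spermatids, Prm1 with 26.8 FPKM was the single round spermatid marker listed, and Kit, taken as a spermatogonial marker, had 25. Kit also had 18.2 FPKM in the pellet against 5.27 in the lysate, and 444 in MVH IP. Whether its reads come from spermatogonia was not tested. Levels and ratios mix the number of cells of a type with the RNA in each cell, and these cannot be told apart. All fractions of a comparison share the lysate.

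In the lysate, 2 small subunit genes made up 45.3% of the signal of all 72 genes with a lysate value. Rps15 (mm9, chromosome 10, 79755175 to 79756859), whose protein sits near the decoding site, had 206 FPKM. Rps27a (chromosome 11, 29445841 to 29478352), which encodes ubiquitin fused to a small subunit protein, had 100.1 FPKM. Their shares of the summed 675 FPKM were 30.5% and 14.8%. The median of the other 70 was 3.46 FPKM, and Rps15 was 59.5 times that. Next came Rps21 with 39.8 FPKM, Rps28 with 25.2, Rps20 with 23.4, Rpl41 with 22.2, Rpl38 with 16.0, Rps29 with 14.2 and Rps27 with 10.3; with the leading pair these were the 9 genes at or above 10 FPKM. Of these 9 genes, 2 encode large subunit proteins, RPL38 and the very short peptide RPL41. Below them, 12 genes lay between 5 and 10 FPKM and 51 under 5.

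Large subunit genes held 26.3% of the lysate sum. Their median level was 3.34 FPKM against 4.74 for small subunit genes. Among the lowest levels above 0 were those of Rpl15 with 0.752 and Rps3 with 1.23 FPKM, and Rpl26 was listed at 0. As a description over the 72 genes, which share the library, the Spearman correlation of lysate level was -0.22 with transcript length and 0.14 with the share of windows found in other genes. All ribosomal protein genes together held 0.00328% of the summed FPKM of the lysate column.

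**Figure D1:**
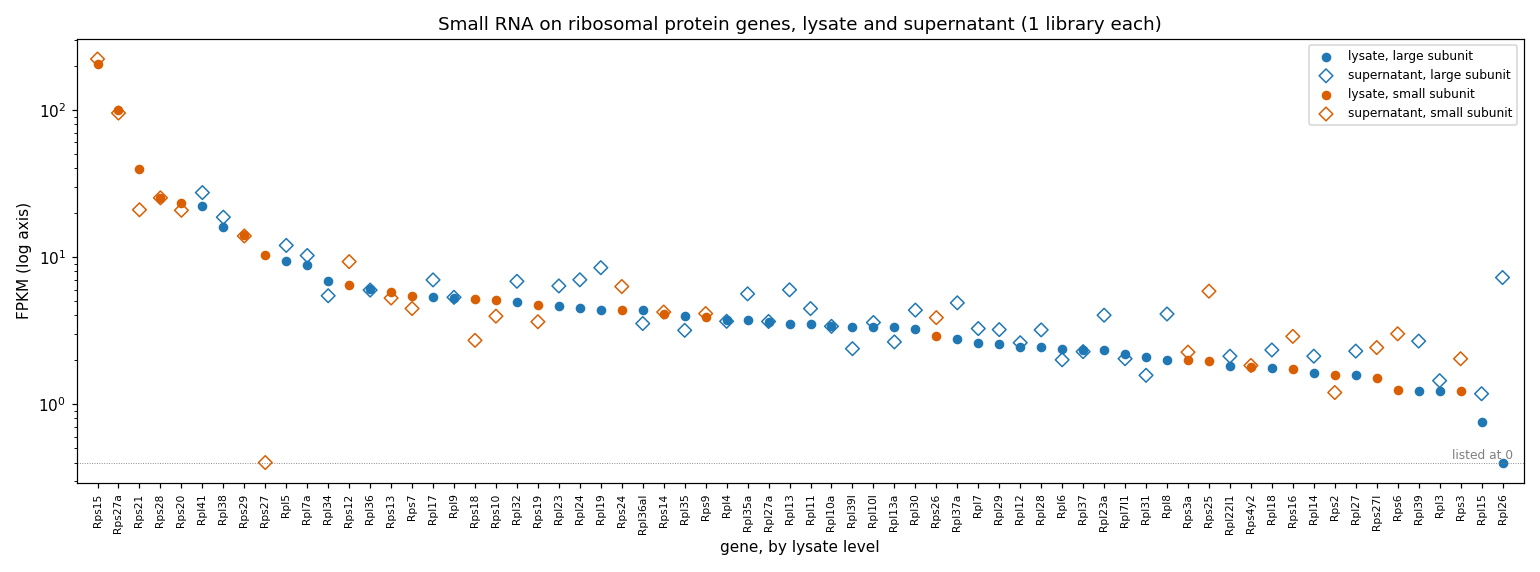
Level of each of 68 ribosomal protein genes of the supernatant table, in FPKM on a log axis, in the lysate (filled circles) and the supernatant (open diamonds), 1 library each, ordered by lysate level, with large subunit genes blue and small subunit genes orange. Rps15 and Rps27a stand above all others in both libraries, and the symbols on the dotted line are listed at 0 (Rps27 in the supernatant, Rpl26 in the lysate).

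The plot of levels by gene shows the same order in the supernatant, the soluble material left after the first spin. Rps15 had 221 FPKM in the supernatant against 206 in the lysate, and Rps27a 95.1 against 100.1. Their log2 ratios were 0.10 (counting SE 0.077) and -0.07 (SE 0.090), so both differed from the lysate by less than 2 counting errors. Rpl41 had 27.4 against 22.2 FPKM, Rps28 25.2 against 25.2, Rps20 20.7 against 23.4 and Rpl38 18.6 against 16.0. The pair Rps15 and Rps27a made up 44.3% of the sum of 714 FPKM. Of the higher genes, Rps21 stood apart, with 20.9 FPKM in the supernatant and 39.8 in the lysate.

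At a 2-fold limit, 3 of the 72 genes were higher in the supernatant, where 7.16% of all features were, and 1 was lower, where 5.42% of all features were. Among named genes other than microRNA and structured RNA genes (called named genes from here, ribosomal protein genes included), 1.16% were higher, 0.934% were lower and 0.198% were listed at 0 in the supernatant. The share of ribosomal protein genes lay between these backgrounds in both directions, and rests on 3 genes and 1 gene. The higher genes included Rpl26 and Rps25. Rpl26 (chromosome 11, 68715067 to 68718036) had 7.24 FPKM and was listed at 0 in the lysate. The gene model Gm15772, listed at the same coordinates in the MVH IP table with 8.83 FPKM, shares 55.8% of the windows of Rpl26, and whether reads moved between these entries was not tested. Rps25 had 5.85 FPKM, where the lysate had 1.98; the log2 ratio was 1.2, and 1.57 without the added 1 FPKM (SE 0.539).

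The lower gene was Rps27 (chromosome 3, 90016588 to 90017570), whose protein carries a zinc finger. It had 10.3 FPKM in the lysate and was listed at 0 in the supernatant, as 2.88% of all features were, at 0 in ACR IP, and at 0.023 FPKM in the pellet. Of its windows, 68.4% are found in the gene Rps27rt, a retrogene copy. A gene listed at 0 in a soluble fraction and near 0 in the pellet of the same lysate may be a failed estimate, so no fold is given. In the authors' deposited table, a q-value under 0.05 was given for 3 genes as higher in the supernatant, where 3.77% of all features had one, and for 2 as lower, where 4.83% had one. The former were Rpl26 (q = 0.001), Rps25 (q = 0.045) and Rps6 (3.0 against 1.24 FPKM, q = 0.045), the phosphoprotein that the S6 kinases modify, and the latter were Rps27 (q = 0.001) and Rps21 (q = 0.015). The deposited table called none of the 72 genes significant, and it called 0.942% of all features higher and 1.59% lower. These q-values compare 2 libraries.

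Smaller differences leaned upward. Of the 72 genes, 48 had a log2 ratio above 0, where 53% of all features did, and 24 below 0, where 47% of all features did. Their median was 0.18 with quartiles at -0.07 and 0.41, beside a median of 0.02 over all features with quartiles at -0.22 and 0.28. Named genes had a median of 0.02 as well. The median counting SE of a single ribosomal protein gene was 0.494. Large subunit genes had a median of 0.24, with 31 above 0 and 12 below. Small subunit genes had 0.04, with 17 above and 12 below. Among large subunit genes, Rpl19 had 8.45 against 4.37 FPKM (log2 ratio 0.81), Rpl8, which lies near the peptidyl transferase centre, 4.09 against 2.01 (0.76), and Rpl37a 4.87 against 2.77 (0.64). Rps18, with 2.71 against 5.17 FPKM (log2 ratio -0.73), was after Rps27 and Rps21 the lowest.

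**Figure D2:**
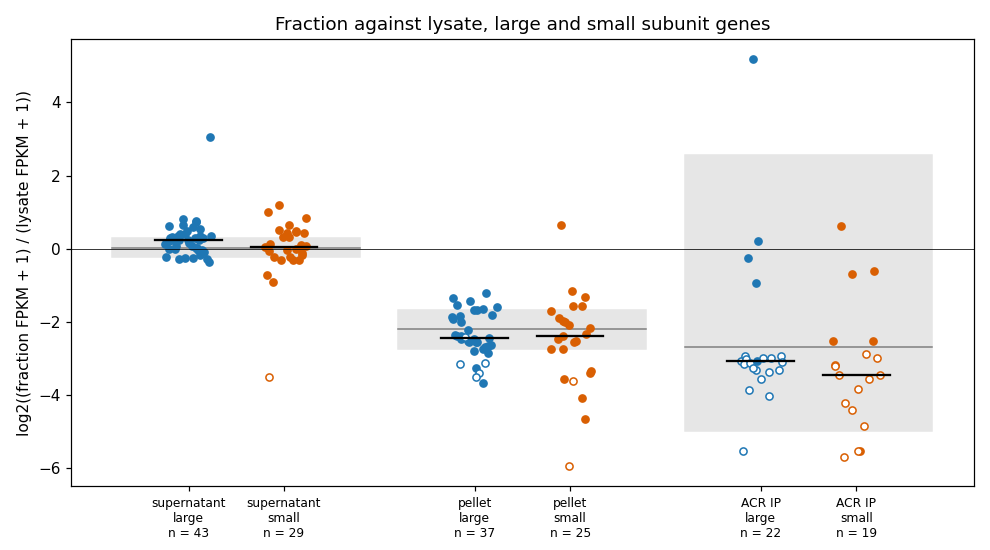
Log2 ratio of fraction to lysate, with 1 FPKM added to both, for each ribosomal protein gene in the supernatant, pellet and ACR IP tables, split by subunit; open circles are genes listed at 0 in the fraction, black bars are medians, and the grey line and box give the median and quartiles of all features of the table. The supernatant medians are 0.24 (large) and 0.04 (small), the pellet medians -2.45 and -2.40, and in ACR IP 30 of the 41 genes are open circles.

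The pellet holds what was spun out of the sonicated lysate, the starting material of the chromatoid body. Here 61 of the 62 listed ribosomal protein genes were at least 2-fold lower than in the lysate, where 86.5% of all features were, and none was at least 2-fold higher, where 8.75% of all features were. Among named genes these shares were 87.1% and 7.98%. Without the limit, 61 were below the lysate, as were 88.6% of all features, and 1 was above it, as were 11.4%. The median log2 ratio was -2.43 (quartiles -2.75 and -1.85), beside -2.20 over all features (quartiles -2.73 and -1.69). Named genes had a median of -2.01. Relative to the median of all features the ribosomal protein genes were at -0.23. On that relative scale 2 of the 62 genes lay past 2-fold above, where 14.6% of all features did, and 11 past 2-fold below, where 17.1% did. Large subunit genes had a median of -2.45 over 37 genes and small subunit genes -2.40 over 25.

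Which genes are listed bears on these counts. In the lysate column of the pellet table, 61 of the 62 listed genes had at least 4.13 FPKM, and the 10 genes of the supernatant table left out of it had at most 3.88 FPKM on the same scale. Genes were thus listed mostly through their lysate level.

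Rps15 and Rps27a also led in the pellet. Rps15 had 116 FPKM in the pellet against 492 in the lysate (log2 ratio -2.08, SE 0.146), and Rps27a 42.1 against 239 (-2.48, SE 0.186). They made up 63.4% of the pellet sum of 249 FPKM, beside 46.1% in the lysate column of the same table, while the median of the other 60 genes was 0.948 FPKM. Both were the only ribosomal protein genes called lower in the authors' deposited table, in which 18.7% of all features were called lower and 0.699% higher. At a q-value under 0.05, that table had 41 of the 62 genes as lower, 24 large subunit and 17 small subunit genes, where 69.4% of all features had one, and none as higher, where 5.59% had one.

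Several of the next genes by lysate level were further down than the leading pair. Rps20, part of the head of the small subunit, had 2.38 FPKM in the pellet and 55.9 in the lysate, with a log2 ratio of -4.07 (SE of the plain ratio 0.937). Rps21 had 8.47 against 95.2 FPKM (-3.35, and -3.49 without the added 1 FPKM, with SE 0.663 for the latter). Rps28, with 60.2 FPKM in the lysate, was listed at 0 in the pellet. Rps29 had 4.18 against 33.9 FPKM, Rpl41 8.16 against 53.0 (-2.56, SE 0.599) and Rpl38 6.10 against 38.1 (-2.46, SE 1.70), close to the median of the group. Without the added 1 FPKM, Rps20 was at -4.55 and Rps15 at -2.09, a gap larger than the SE of either, which the plot of pellet against lysate levels shows.

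**Figure D3:**
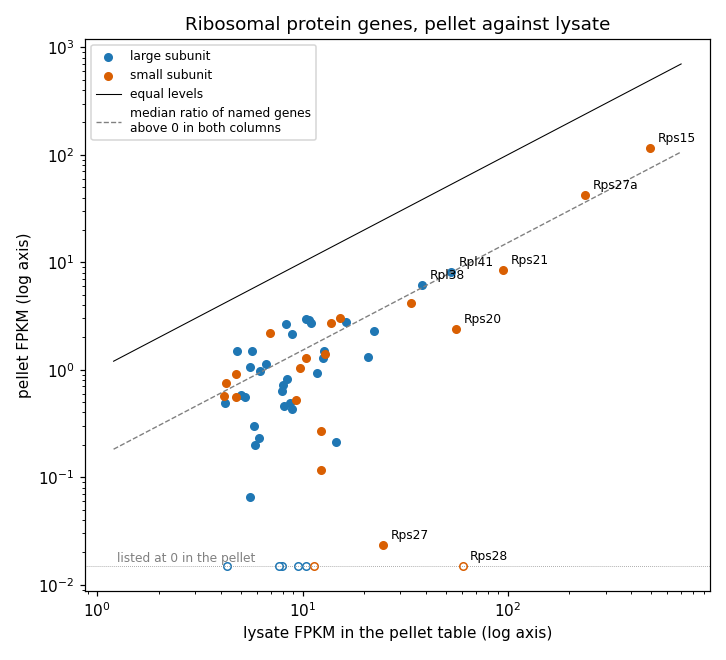
Pellet level against lysate level of 58 ribosomal protein genes of the pellet table, both in FPKM on log axes, with a solid line of equal levels and a dashed line at the median ratio of named genes above 0 in both columns; open circles are listed at 0 in the pellet. Every point lies below the line of equal levels; against the dashed line at -2.72, the ratios without the added 1 FPKM were -2.09 for Rps15, -2.50 for Rps27a (SE 0.186), -3.49 for Rps21 (SE 0.663) and -4.55 for Rps20, and Rps28 is listed at 0.

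Genes listed at 0 in the pellet numbered 7 of 62, where 10.7% of all features and 3.12% of named genes were. They were Rpl13a, Rpl22l1, Rpl30, Rpl35 and Rpl36al of the large subunit, and Rps19 and Rps28 of the small. At the same coordinates as Rpl30, the gene model Gm12191 had 8.35 FPKM in the pellet against 85.6 in the lysate. At those of Rps16 (0.567 against 4.13 FPKM), LOC100302567 was listed at 0 against 230. Whether reads moved between such entries was not tested. Among the least lowered, Rpl8 had 1.49 against 4.79 FPKM (log2 ratio -1.22). RPL5 carries the smallest large subunit ribosomal RNA into the assembling particle. Its gene had 2.27 against 22.4 FPKM (-2.84, and -3.30 without the added 1 FPKM). The SE of that plain ratio was 0.413, the smallest error among large subunit genes. The median implied SE was 1.13 on the log2 scale, so that the pellet values of most single genes are imprecise. Over the 55 genes above 0 in both columns the median ratio without the added 1 FPKM was -3.09, beside -2.71 over all features and -2.72 over named genes.

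The ACR IP library served as the control for the MVH IP. Of the 41 listed ribosomal protein genes, 30 were listed at 0 in it (73.2%), where 41.2% of all features and 34% of named genes were. Counting these, 34 genes were at least 2-fold lower than in the lysate, where 59% of all features were, and 1 was at least 2-fold higher, where 36.4% of all features were. Relative to the median of all features, 7 of the 41 lay past 2-fold above, where 43.2% of all features did, and 10 past 2-fold below, where 33.4% did. Without that centring, 46.5% of named genes were at least 2-fold higher and 47.4% lower. The library may be shallow, but read counts are not given and its depth was not tested. The commonest ratios of ACR IP to lysate over all features were 10 (44 features) and 20 (35 features). Such repeated round values are what very few reads could give. A value of 0 in ACR IP may mean no more than that few reads were drawn. Listing bears on these shares too. Apart from Rpl27 (3.26 FPKM) and Rps16 (3.60), the 41 genes had at least 6.43 FPKM in the lysate column. Their median there was 9.35 FPKM, beside 5.05 for named genes, of which 190 were listed at 0 in the lysate. Genes listed mostly through the lysate are thus set beside a background listed in part through ACR IP. The authors' table gives no test for this library, and no counting error could be derived.

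Rpl27 (chromosome 11, 101303558 to 101306910), a large subunit protein gene, was the exception. It had 154 FPKM in ACR IP and 3.26 in the lysate. Its log2 ratio was 5.18, and it made up most of the 238 FPKM that ribosomal protein genes held there. In the other table that lists it, it had 2.29 FPKM in the supernatant against 1.57 in the lysate. Of its windows, 54.9% are found in other genes. Its lysate value was the lowest of the 41, and the gene was listed through its ACR IP value.

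Above the lysate were 3 genes, Rpl27, Rpl10a and Rps16, where 38.8% of all features were above and 61.1% below. The 10 others above 0 FPKM were Rpl38 with 27.7 FPKM in ACR IP against 33.2 in the lysate, Rps21 with 13.1 against 79.7, Rpl10a with 7.90 against 6.71, Rps15 with 7.74 against 401, Rps7 with 6.54 against 11.1, Rps13 with 6.52 against 10.4, Rps16 with 6.00 against 3.60, Rps27a with 4.73 against 32.2, Rpl10l with 3.02 against 6.65 and Rpl5 with 1.37 against 18.7. Rps15, the highest of the 41 in the lysate, was thus the fifth in ACR IP. The lysate was 51.8 times ACR IP for Rps15, 6.1 times for Rps21 and 1.7 times for Rps7. Such round ratios are what very few ACR IP reads would give, so the order of these genes in ACR IP is uncertain. The ratio of Rps27a rests on the low lysate value that this table holds for it. The median log2 ratio over the 41 genes was -3.16, beside -2.70 over all features and -0.23 over named genes. Over the 11 genes above 0 the median of plain ratios was -0.77, beside 2.0 over all features and 2.98 over named genes above 0 in both columns.

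The MVH IP column holds the purified chromatoid body material. It listed 33 of the names, of which 18 were above 0 and 15 at 0, where 46.2% of all features were at 0, and 17 were at or above 1 FPKM, where 42.1% of all features were. Among named genes 35.6% were at 0 and 48.3% at or above 1 FPKM. Rps27a led with 129 FPKM, rank 480 of 8959 features and rank 57 among named genes. Rps15 followed with 109 FPKM (rank 494) and Rps20 with 55.6 (rank 608). Below a gap came Rpl28 with 18.8 FPKM, Rps21 with 14.8, Rpl5 with 13.9, Rpl7 with 11.4, Rps28 with 11.0 and Rpl9 with 10.6. The retrocopy Rpl10l had 3.43 FPKM, Rps4y2 3.81 and Rpl4 2.31.

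At 0 in MVH IP were 7 of 15 large subunit names and 8 of 18 small subunit names. The genes at 0 included Rpl32, Rpl34, Rpl35a, Rpl36al, Rpl39l, Rpl41, Rpl8, Rps19, Rps27l, Rps29, Rps9 and the kinases Rps6ka1 and Rps6ka5. Of all 15 at 0, the 13 with a lysate value had a median of 4.34 FPKM there, close to the 4.93 FPKM over 16 of those above 0. Among them, Rpl41 had 22.2 FPKM in the lysate of the supernatant table, 8.16 in the pellet and 0 in MVH IP, and Rps29 had 14.2, 4.18 and 0. Rps28 went the other way, at 0 in the pellet and 11.0 FPKM in MVH IP. These columns were scaled separately, so only whether a gene was above 0 can be set side by side.

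**Figure D4:**
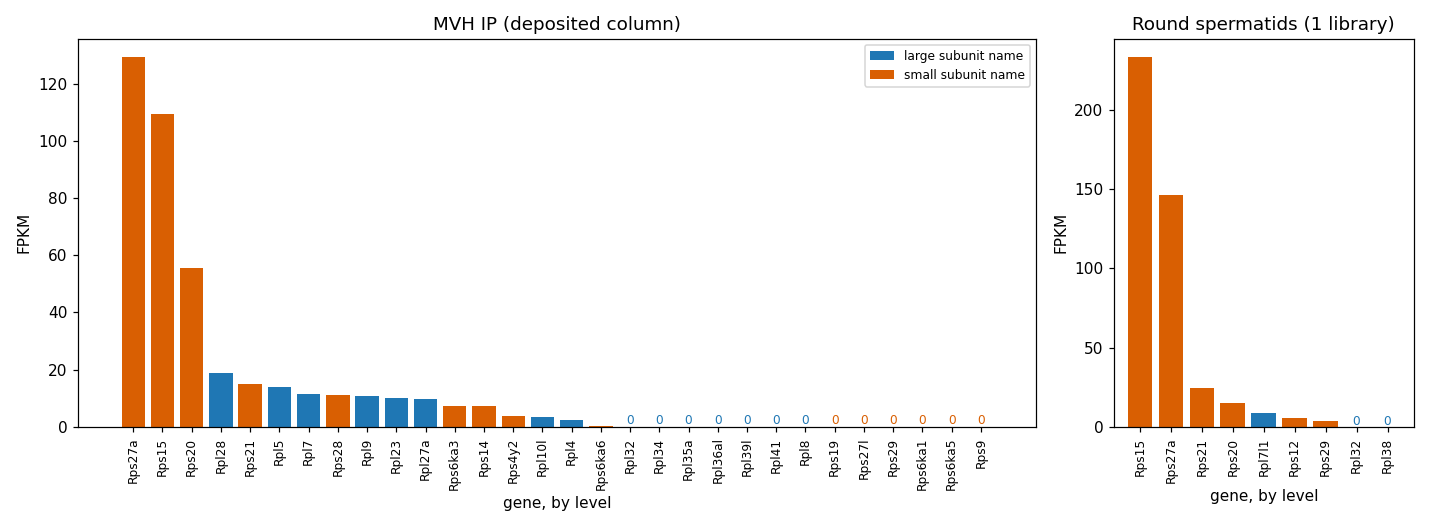
Level in FPKM of ribosomal protein names listed in the MVH IP column (left, 30 names) and in sorted round spermatids (right, 9 names), ordered by level, with large subunit names blue and small subunit names orange and a 0 printed where the level is 0. Rps27a, Rps15 and Rps20 lead in MVH IP, and Rps15 and Rps27a lead in round spermatids.

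Sorted round spermatids listed 9 of the names, 6 small and 3 large. Rps15 had 233 FPKM, rank 395 of 1014 features and rank 12 among 347 named genes. Rps27a had 147 FPKM, rank 448 of all features and rank 16 among named genes. Rps21 had 24.4 FPKM, Rps20 14.9, Rpl7l1 8.58, Rps12 5.62 and Rps29 3.77. Rpl32 and Rpl38 were listed at 0, where 3.16% of all features and 2.02% of named genes were. The other 7 were at or above 1 FPKM, as were 96.4% of all features and 97.4% of named genes. The 2 leading genes made up 86.9% of the sum of 437 FPKM.

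The 5 genes in all tables allow their proportions to be compared within each column, free of a scale factor common to a whole column. Rps15 was 53.7% of their sum in the lysate, 59.5% in the supernatant, 66.9% in the pellet, 35.4% in MVH IP and 55.2% in round spermatids. For Rps27a these shares were 26.1%, 25.6%, 24.4%, 41.8% and 34.7%. Rps27a was thus below Rps15 in the lysate, supernatant, pellet and round spermatids and above it in MVH IP, at 1.18 times Rps15 there against 0.364 times in the pellet. In the lysate column of the ACR IP table, however, Rps27a took 5.5% of the sum, at 0.0803 times Rps15. The share of a single gene can therefore differ between lysate columns too. Whether the order in MVH IP reflects such a difference between tables was not tested. Rps20 took 6.1% of the sum in the lysate, 5.58% in the supernatant, 1.38% in the pellet, 18% in MVH IP and 3.52% in round spermatids. Relative to Rps15 it was at 0.114 times in the lysate, 0.0206 times in the pellet and 0.508 times in MVH IP.

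Rps21 took 10.4% in the lysate, 5.62% in the supernatant, 4.89% in the pellet, 4.79% in MVH IP and 5.76% in round spermatids, so its share was highest in the lysate among these columns. Rps29 took 3.7%, 3.73%, 2.42%, 0% and 0.891% in the same order. In ACR IP the sum of the 5 genes was 25.5 FPKM, of which Rps21 took 51.2%, Rps15 30.3% and Rps27a 18.5%, with Rps20 and Rps29 listed at 0. These ACR IP shares may rest on very few reads. With no replicate of any column, the spread that such shares have between samples is unknown.

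**Figure D5:**
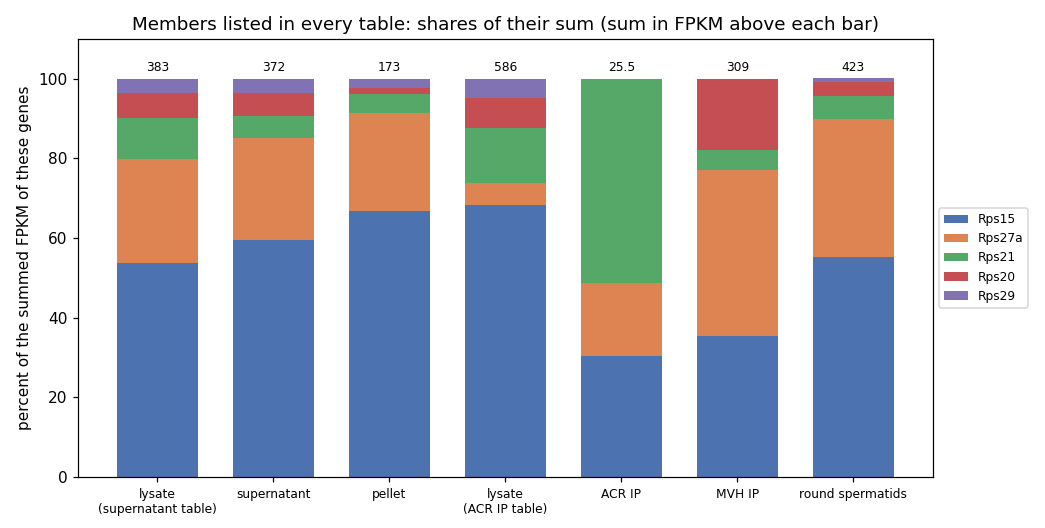
Share of each of the 5 small subunit genes listed in every table in the summed FPKM of these genes, in percent, for each column, with that sum in FPKM above the bar; the lysate is shown in the scale of the supernatant table and as given in the ACR IP table. Rps15 is the largest part in the lysate, supernatant, pellet and round spermatids, Rps27a (41.8%) in MVH IP and Rps21 (51.2%) in ACR IP. The ACR IP shares may rest on very few reads.

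Small RNA genes inside ribosomal protein genes are another source of reads at the same place. By coordinates, 17 of the genes, 11 large and 6 small subunit genes, held 27 hosted RNAs, which were small nucleolar or related RNAs with 1 microRNA entry, Mir1944 in Rpl3. The hosted RNA was above its host in the lysate in 26 of 27 pairs, and the median ratio of hosted RNA to host was 261. Rpl4 had 3.73 FPKM in the lysate, while Snord16a inside it had 856. Whether reads of a hosted RNA were counted on the host was not tested. Host genes had a median log2 ratio of 0.34 in the supernatant over 17 genes, against 0.15 over the 55 without a hosted RNA. In the pellet these medians were -2.46 over 13 genes and -2.41 over 49.

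Host and hosted RNA had log2 ratios of the same sign in 14 of the 27 pairs in the supernatant and of opposite sign in 12; in the remaining pair the ratio of the hosted RNA was 0.00 (Snord33 in Rpl13a). In the pellet, where most features were lower, 19 of 20 pairs had the same sign. In the supernatant Rpl32 had 6.83 FPKM against 4.92 in the lysate, and Snora7a inside it 90.5 against 17.0. Rpl13 had 5.98 FPKM in the supernatant against 3.51 in the lysate, whereas its hosted Snord68 had 831 against 3321. In the pellet Rpl13 had 0.820 against 8.40 FPKM, and Snord68 was listed at 0 against 7938. Rps12 had 9.29 against 6.40 FPKM in the supernatant and Snord100 in its intron 1088 against 1767, while Snora33, also hosted by Rps12, had 22.4 FPKM and was listed at 0 in the lysate. In ACR IP all 25 listed hosted RNAs were at 0. In MVH IP 14 of 15 were at 0, the exception being Snora21 in Rpl23 with 411 FPKM, beside 9.99 FPKM for Rpl23 itself. In round spermatids 11 of the 13 listed were above 0. The leading genes Rps15, Rps27a, Rps21, Rps20 and Rps29 host no listed small RNA.

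Of the other paralog pairs, several were listed through the copy. Rpl10l, the retrocopy of Rpl10, had 3.58 FPKM in the supernatant against 3.34 in the lysate, 0.641 in the pellet against 7.98 (log2 ratio -2.45, SE of the plain ratio 1.12) and 3.02 in ACR IP against 6.65. Rpl36al had 3.52 against 4.34 FPKM in the supernatant and was listed at 0 in the pellet, ACR IP and MVH IP. Rpl22l1 had 2.11 against 1.8 FPKM in the supernatant and was listed at 0 in the pellet. Rpl10, Rpl36a, Rpl22 and Rpl3l were not among the 76 names that the rule found. Rps27l, the relative of Rps27, had 2.42 against 1.51 FPKM in the supernatant and 0 in MVH IP.

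Ribosomal proteins with names outside the rule had values in the range of those within it. Over 7 of these, Rplp0, Rplp1, Rplp2, Rpsa, Fau and Gnb2l1 among them, the median log2 ratio was 0.20 in the supernatant and -2.27 in the pellet, with none past 2-fold in the supernatant and 7 of 7 at least 2-fold lower in the pellet. Rplp2, of the stalk that binds elongation factors, had 69.4 FPKM in MVH IP, above every ribosomal protein gene of the name rule except Rps27a and Rps15, and Rplp1 had 23.7.

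Other genes of translation had medians from 0.03 to 0.22 in the supernatant. In the pellet the medians ran from -2.19 to -1.66, leaving out the ribosome biogenesis list, of which Npm1 alone was listed there. Of 36 mitochondrial ribosomal protein genes in the supernatant, 1 was past 2-fold below the lysate and none past 2-fold above, with a median log2 ratio of 0.03. In the pellet 19 of 20 were at least 2-fold lower, with a median of -1.91. The 33 genes with initiation factor names (Eif and a digit) had a median of 0.18 in the supernatant, and 13 of them -2.07 in the pellet. Of these, 4 are not initiation factors: Eif2c2 and Eif2c4 encode Argonaute proteins, Eif2ak2 a kinase and Eif4ebp2 an inhibitor of the cap-binding factor. Without them the medians were 0.21 over 29 genes and -2.22 over 9. The elongation factor list, which includes Tpt1 although its name is not that of an elongation factor, had 0.09 over 6 genes and -2.19 over 5. Tpt1 had the highest log2 ratio of that list in both, 0.42 in the supernatant and -0.11 in the pellet. Poly(A) binding proteins had 0.22 over 5 genes and -1.66 over 3. Of the ribosome biogenesis genes, Npm1, a nucleolar chaperone, had a log2 ratio of -0.77 in the pellet and 1097 FPKM in ACR IP against 4.23 in the lysate. As counts of genes in single libraries, these medians describe the lists and do not test a difference between them.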

How the data were processed

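Small RNA libraries of lysate, supernatant, 2 pellets, MVH IP, ACR IP and round spermatids were used as the authors' tables give them. Per the submitters' processing notes, TopHat, Cuffdiff and the mm9 build were used, with neither versions nor settings recorded there. The deposited values are FPKM. In 2 tables, supernatant and pellet, the authors' p-values, q-values, test statistics (a score) and calls are given as theirs. Counts are not given, and depth enters through the SE derived from the authors' statistic. Of the MVH IP table, 1 column of long RNA levels, of no sample described here, was left out.

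Within each table, log2((fraction FPKM + 1)/(lysate FPKM + 1)) was computed with a 2-fold limit, where either column reached 1 FPKM. MVH IP transcripts of 1 symbol and locus were summed. The SE is the plain log2 ratio divided by the authors' statistic. Hosted RNAs overlap a member's listed locus by at least 1 base. All 76 names matched RefSeq symbols or, as for Rps3a (Rps3a1) and Rps4y2 (Rps4l), their synonyms. The tools were Python 3.11.15, pandas 2.3.3, numpy 2.4.6, matplotlib 3.10.9 and scipy 1.17.1, and the ratio and SE steps were tested on simulated data. With 1 column per group no test between groups was made. Genes named in the text were those past 2-fold or called, the 5 highest and 3 lowest of each table, those in all tables, hosts, paralog pairs and names that are not ribosomal proteins; further genes were named after their values were seen. Alternatives were other pseudocounts, floors and centring, and leaving out hosts or the 5 genes in all tables. The genes and lists were chosen with earlier results of these data known. Values of a few single genes are not reported here, and the plots that name genes leave them out, while counts and medians include them.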

Additional observations from a re-analysis of the deposited data

How the results depend on the processing

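No paired analysis was possible because each comparison rests on 1 column per group and no test was made; for the same reason no replicate could be left out. Of the alternative values 68 stayed, 34 moved and none reversed. Counts and percentiles were held to a tolerance of 1.5 times and median log2 ratios to none, so each changed median follows. The cause was not tested except where the alternative's construction shows it. With a pseudocount of 0.1 FPKM, 5 ribosomal protein genes lay past 2-fold above the lysate in the supernatant, and with 10 FPKM 0 did; the supernatant median was 0.22 and 0.06. With 10 FPKM the genes at least 2-fold lower were 19 in the pellet, with a median of -0.83, and 16 in ACR IP, with a median of -0.90. A pseudocount of 0.1 gave medians of -3.02 in the pellet and -6.29 in ACR IP, where most values are 0. A minimum of 5 FPKM gave 0.21 in the supernatant and -2.52 in the pellet. Keeping genes above 0 in both columns left 0 lower in the supernatant and 4 of 11 lower in ACR IP, with a median of -0.68; the pellet median was -2.39. Relative to the median of all features, the supernatant median was 0.16, the pellet had 2 higher and 11 lower genes with a median of -0.23, and ACR IP 7 higher and 10 lower with a median of -0.46. Without names that are not ribosomal proteins the medians were 0.2 in the supernatant and -2.45 in the pellet, and without host genes 0.15 and -2.41. In alternatives added after seeing the data, leaving out the genes in all tables gave 0.23 in the supernatant, -2.4 in the pellet and -3.14 in ACR IP, and the lysate of the supernatant table gave -3.33 in ACR IP. In round spermatids the median gene had 12.1% of features below it; this was 25.3% among features at or above 1 FPKM, 21.6% among named genes and 28% without host genes, over 7 to 9 genes. The median implied SE of a gene was 1.13 in the pellet, and none could be derived for ACR IP, MVH IP or round spermatids.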
